A study of Mus musculus with 7 samples.

Results

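A set of 10 genes that let leukocytes stick to and cross vessel walls was read in bulk RNA from mouse heart ventricle: Icam1, Icam2, Vcam1, Sele, Selp, Selplg, Itgal, Itgb2, Itga4 and Itgb7. They were chosen by symbol, with earlier results of these data known. All 10 were found among 23420 gene rows and passed the filter on low values. The study compared mice that model myocarditis caused by immune checkpoint inhibitors (ICI), drugs that block the T cell brakes CTLA-4 and PD-1, with mice labelled as controls. The 4 control libraries came from Ctla4+/+;Pdcd1-/- and the 3 ICI-myocarditis libraries from Ctla4+/-;Pdcd1-/- hearts, all untreated and 3 to 6 weeks old. Every sample thus lacked Pdcd1, the PD-1 gene, by its label, and none with an intact Pdcd1 was among them. The model is genetic, so no inhibitor drug was given. The tissue field of the labels names the whole heart, while the protocol names flash-frozen ventricle.

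Leukocytes leave the blood in steps. Selectins on activated endothelium, E-selectin (Sele) and P-selectin (Selp), catch rolling cells through ligands such as PSGL-1 (Selplg). Integrins on the leukocyte then bind immunoglobulin-family ligands on the vessel wall: LFA-1 (Itgal with Itgb2) binds ICAM-1 and ICAM-2, and the alpha4 integrins (Itga4 with Itgb1 or Itgb7) bind VCAM-1 or the mucosal ligand MAdCAM-1. Icam1, Vcam1 and Sele are classic targets of NF-kappaB in endothelium exposed to inflammatory cytokines, whereas Icam2 is held to be constitutive there.

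Sequences just upstream of the transcription start were given for 5 of the 10 genes (RefSeq, GRCm38.p6). Icam1, Sele and its neighbour on chromosome 1, Selp, are printed because the data for these vascular genes differ and each carries a match to GGNNNTTCC. This is a shortened and loosened form of the NF-kappaB site that allows any base at each N, so a match need not be a full site. Each line is the 250 bases before the RefSeq start on the plus strand, and capitals mark matches on either strand. The windows are chr9:21015690-21015939 for Icam1, chr1:164047984-164048233 for Sele and chr1:164115014-164115263 for Selp.
Icam1: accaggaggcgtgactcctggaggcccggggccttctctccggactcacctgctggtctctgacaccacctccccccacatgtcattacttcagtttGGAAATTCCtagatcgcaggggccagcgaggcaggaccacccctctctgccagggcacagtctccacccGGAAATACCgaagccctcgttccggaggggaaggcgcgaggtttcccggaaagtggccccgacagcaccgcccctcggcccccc
Sele: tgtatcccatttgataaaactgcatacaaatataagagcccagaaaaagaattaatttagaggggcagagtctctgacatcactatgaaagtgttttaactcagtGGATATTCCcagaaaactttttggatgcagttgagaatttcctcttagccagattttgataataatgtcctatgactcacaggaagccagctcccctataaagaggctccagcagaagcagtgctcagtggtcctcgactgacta
Selp: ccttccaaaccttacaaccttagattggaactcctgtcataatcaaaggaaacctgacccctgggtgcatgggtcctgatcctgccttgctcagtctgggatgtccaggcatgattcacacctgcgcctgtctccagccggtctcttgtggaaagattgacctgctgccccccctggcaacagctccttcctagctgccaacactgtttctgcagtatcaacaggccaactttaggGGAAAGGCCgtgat
Counting the base before the start as -1, the matches lay at -153 to -145 (both strands) and -84 to -76 in Icam1, at -145 to -137 in Sele and at -14 to -6 in Selp. In 300-base windows, the 250 bases before and 50 after the start, 18.5% of 32851 promoters held this motif, and Itga4 and Itgb7 did not. A STAT-type match, TTCNNNGAA, was present at -42 to -34 in Icam1 and at -140 to -132 in Sele, where it overlapped the GGNNNTTCC match (8.30% of promoters). The other motifs searched on both strands were TATAAA, in Sele at -49 to -44 and in Icam1 at 14 to 19 after the RefSeq start (13.6% of promoters), GAGGAA, a PU.1-type core, in Sele and Itgb7 (28.3%), and TGTGGT, a RUNX-type core, in Itga4 (16.8%). These are matches of letters, not measured binding.

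Of the 10 genes, 8 rose in ICI-myocarditis hearts and none was called lower, where 11.7% and 4.00% of the 15258 genes tested were called in those directions and 15.7% in either (limma on log2(normalized count + 1), Benjamini-Hochberg adjusted p under 0.05 over all genes tested). Every ICI-myocarditis library lay above every control for the same number, 8, against 17.3% of genes tested, and the groups were apart for 9 of 10 in either direction, against 28.6%. The 5 leukocyte genes changed by 3.11 to 3.99 on the log2 scale and the 5 vascular genes by -0.69 to 2.07. The median was 2.59, beside -0.02 over all genes tested. Because the genes were chosen with earlier results of these data known, these comparisons are a description and not a test of the set. In bulk tissue, more cells of a type cannot be told apart from more RNA per cell. By the authors' deposited table, 9 of the 10 had an adjusted p under 0.05 (20.2% of its genes in either direction), 8 of them higher (12.9%) and 1, Icam2, lower (7.35%). The members' deposited log2 fold changes equalled, to rounding, those of the DESeq2 alternative on read counts recovered from that table. They are therefore not separate evidence.

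**Figure D1:**
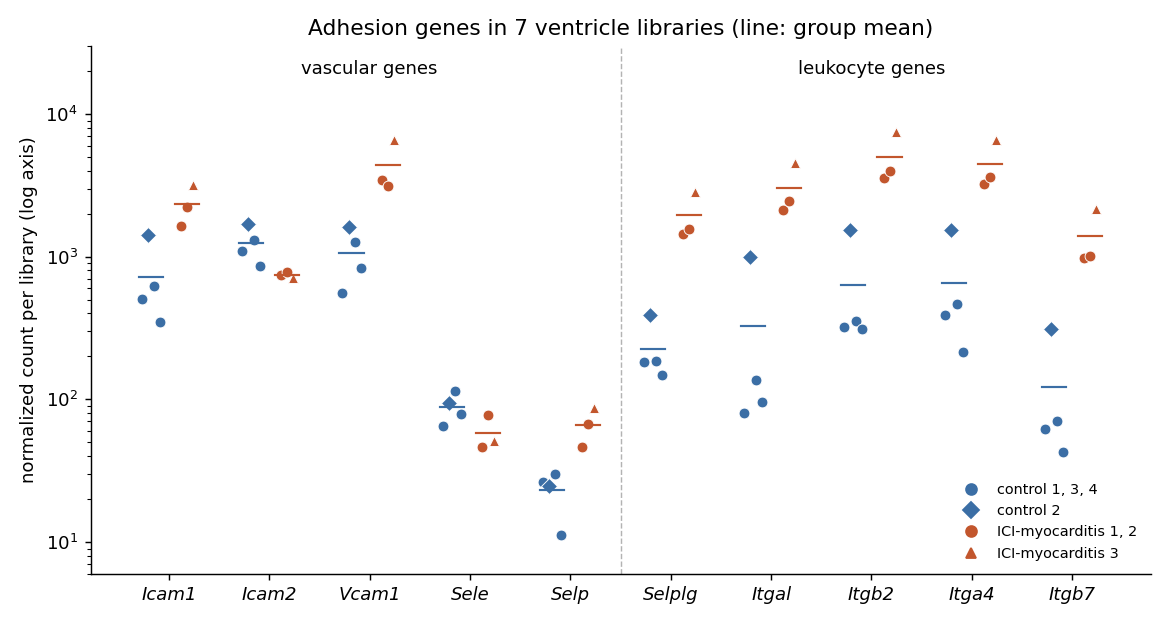
Normalized counts of the 10 adhesion genes (log axis) in each of 7 ventricle libraries. Blue marks are controls and orange marks ICI-myocarditis libraries, short lines are group means, and control 2 (diamond) and ICI-myocarditis 3 (triangle) have their own symbols. The 8 called genes are higher in all 3 ICI-myocarditis libraries, Icam2 is lower in all 3, and Sele overlaps.

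Control 2 and ICI-myocarditis 3 stood at the high end of their groups. Control 2 was the highest control for 8 of the 10 genes, against 35.3% of genes tested, and ICI-myocarditis 3 the highest of its group for 8, against 41.0%. The pan-leukocyte markers (Ptprc, Cd53 and 7 others) summed to 11489 normalized counts in control 2, 4007 to 5348 in the other controls and 31446 to 52727 in ICI-myocarditis. T cell markers summed to 2011 in control 2, 190.2 to 328 in the other controls and 8304 to 12700 in ICI-myocarditis. Recovered reads ranged from 20931730 to 39037176 per library. Pdcd1 reads were present in all 7 libraries, from 2.50 to 1481 normalized counts, and Ctla4 was higher in the Ctla4+/- libraries (302 ± 63.4, SD, n = 3) than in controls (63.3 ± 37.4, SD, n = 4), so gene totals did not check the genotypes.

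Vcam1 (chr3:116109949-116129688, minus strand, GRCm38) had the highest log2 fold change of the 5 vascular genes. It had 555, 1617, 1262 and 829.5 normalized counts in controls 1 to 4 and 3458, 3142 and 6547 in ICI-myocarditis 1 to 3. The groups did not overlap, the lowest ICI-myocarditis library standing 1.94 times above control 2. limma put its log2 fold change at 2.07 (SE 0.391; adjusted p = 0.00896), and it passed in all 17 alternative analyses (log2 fold change 1.74 to 2.31).

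Icam1 (chr9:21015985-21028817, plus strand), the LFA-1 ligand, was at 501, 1410.0, 623 and 350.3 normalized counts in controls 1 to 4 and at 1648, 2235 and 3180.1 in ICI-myocarditis 1 to 3. Control 2 was 2.26 times the next control and only slightly under the lowest ICI-myocarditis library, which exceeded it 1.17 times. Its log2 fold change was 1.86 by limma (SE 0.435; adjusted p = 0.0209). Without control 1, control 3, ICI-myocarditis 2 or ICI-myocarditis 3 it missed the threshold (limma adjusted p = 0.0662, 0.0613, 0.0593 and 0.0899). Without control 2 it passed (2.25, limma adjusted p = 0.000804).

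Icam2 (chr11:106377656-106388075, minus strand) had a log2 fold change below 0. Controls 1 to 4 had 1094, 1702, 1309 and 858 normalized counts and ICI-myocarditis 1 to 3 had 745, 783 and 714. All 3 ICI-myocarditis libraries were below every control, as were those of 11.3% of genes tested. A log2 fold change of -0.69 (95% interval -1.23 to -0.15) did not pass adjustment (limma adjusted p = 0.0860). It passed without control 4 (-0.85, limma adjusted p = 0.0322), with limma-voom (-0.67, adjusted p = 0.0187) and with DESeq2 (-0.73, adjusted p = 0.0424).

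The selectins were low and did not move together. Selp (chr1:164115264-164150026, plus strand), whose protein is also stored in platelets, had 26.2, 24.7, 30.1 and 11.3 normalized counts in controls and 46.0, 66.7 and 87.1 in ICI-myocarditis, from 9 to 114 reads per library. Each ICI-myocarditis library was above every control. By limma the log2 fold change was 1.53 (SE 0.433; adjusted p = 0.0427), the call of the 8 that the most alternatives ended. Leaving out any 1 library other than control 2 ended the call (limma adjusted p 0.0544 to 0.194), as did scaling by library size only (0.0616). Of 6 platelet markers tested none rose and Gp1ba fell by 1.05 (limma adjusted p = 0.0124), and the 8 on the list summed to 737 to 1236 normalized counts in controls and 424 to 604 in ICI-myocarditis.

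Sele (chr1:164048234-164057677, plus strand), with 45 to 108 reads per library, was at 65.5, 93.8, 115 and 78.8 normalized counts in controls and 46.0, 78.3 and 51.2 in ICI-myocarditis. The groups overlapped, because ICI-myocarditis 2 lay above control 1. Its change of -0.59 on the log2 scale (limma adjusted p = 0.265) had a 95% interval of -1.33 to 0.15, and it passed in 0 of 17 alternatives.

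**Figure D2:**
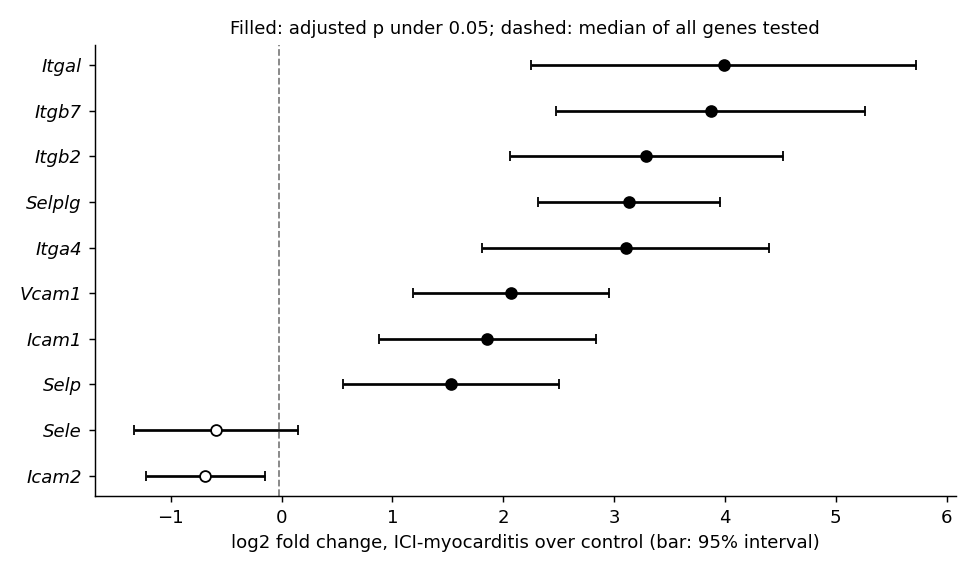
Log2 fold change of each adhesion gene, ICI-myocarditis over control, from limma with its 95% interval (7 libraries). Filled points passed an adjusted p of 0.05 and the dashed line is the median of all genes tested, -0.02. The 5 leukocyte genes stand at 3.11 or more, Vcam1, Icam1 and Selp between 1.53 and 2.07, and Sele and Icam2 below 0.

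On the leukocyte side, Selplg (chr5:113818536-113832644, minus strand), the P-selectin ligand, had the smallest standard error of the 5 genes. It was at 182, 391, 184 and 149 normalized counts in controls and 1439, 1554 and 2839 in ICI-myocarditis. The lowest ICI-myocarditis library was 3.68 times control 2. limma put the increase at 3.13 on the log2 scale (SE 0.365; adjusted p = 0.00276).

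Both chains of LFA-1 rose. Itgal (chr7:127296260-127335138, plus strand), the alpha chain, was at 80.7, 994, 137 and 95.1 normalized counts in controls and 2132, 2465 and 4531 in ICI-myocarditis. Control 2 was 7.24 times the next control, the widest such gap of the 10 genes, yet the lowest ICI-myocarditis library was 2.14 times control 2. By limma the log2 fold change was 3.99 (SE 0.772; adjusted p = 0.00976). It was 4.81 without control 2. With all libraries it was 3.17 with edgeR and 3.22 with DESeq2 on the recovered reads, and all of these passed the threshold.

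Itgb2 (chr10:77530252-77565708, plus strand), the beta chain shared by all CD18 integrins, was at 322, 1529.6, 353 and 312 normalized counts in controls and 3586, 3982 and 7434 in ICI-myocarditis. Controls 1, 3 and 4 were close together and control 2 stood well above them. Its log2 fold change by limma was 3.29 (SE 0.546; adjusted p = 0.00591), and the lowest ICI-myocarditis library was 2.34 times control 2.

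Itga4 (chr2:79255426-79333123, plus strand), the alpha chain that pairs with Itgb1 or Itgb7, was at 390.2, 1537, 465 and 214 normalized counts in controls and 3234, 3644 and 6565 in ICI-myocarditis. limma put the increase at 3.11 (SE 0.574; adjusted p = 0.00849). Itgb7 (chr15:102215995-102231944, minus strand) was at 61.5, 312, 70.3 and 42.5 in controls and 982, 1010.2 and 2168 in ICI-myocarditis, which limma put at 3.87 (SE 0.620; adjusted p = 0.00516), or 4.48 without control 2. Neither gene overlapped between groups. Selplg, Itgal, Itgb2, Itga4 and Itgb7 passed in each of the 17 alternatives. Mast cells also carry beta7 integrin. Of 6 mast cell markers tested 1 rose (Hdc, 1.55) and 2 fell (Cpa3, -1.61, and Mcpt4, -1.60), and 5 of the 6 were below 0. The call of Hdc passed in 8 of 17 alternatives, and neither decrease passed with library size scaling. The 8 on the list summed to 542 to 1410.0 normalized counts in controls and 867 to 1189 in ICI-myocarditis. Kit was the highest of these, at means of 657 in controls and 555 in ICI-myocarditis.

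Levels between genes were compared per kilobase of the longest coding transcript in GENCODE M21. Which transcripts were present was not measured, so orders and sums per kilobase depend on that length. Icam2 led in controls, at 968 ± 280 normalized counts per kilobase (SD, n = 4), apart from the next gene, Vcam1 (307 ± 135). From Vcam1 down to Sele (30.3 ± 7.29) each gene overlapped its neighbour, and Selp was apart at the bottom (6.71 ± 2.39). In ICI-myocarditis, Itgb2 led at 1684 ± 713 (SD, n = 3), followed by Vcam1, Selplg and Icam1 (929 ± 305), which overlapped one another in that order. Icam1 was apart from Icam2 (583 ± 27.3), whose level was next to that of Itgal (583 ± 249). The selectins remained lowest, Sele at 20.1 ± 5.94 and Selp at 19.4 ± 5.97.

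The alpha chains that pair with Itgb2 are Itgal, Itgam (Mac-1), Itgax (CD11c) and Itgad. Per kilobase they summed to 193 ± 174 normalized counts in the 4 controls and to 1497 ± 578 in the 3 ICI-myocarditis libraries (mean ± SD), beside 212 ± 202 and 1684 ± 713 for Itgb2. Itgal made up 16.8%, 42.0%, 21.8% and 17.0% of this sum in controls 1 to 4 and 38.5%, 36.9% and 40.3% in ICI-myocarditis 1 to 3. Itgam made up 65.2%, 24.6%, 62.6% and 72.4% in controls and 37.4%, 27.9% and 36.0% in ICI-myocarditis. In both chains control 2 was closer to the ICI-myocarditis libraries than to the other controls, and the groups overlapped.

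Itgb1, the other partner of Itga4, was much more abundant per kilobase than Itgb7. Over the 4 controls the means ± SD were 5613 ± 1218 and 45.3 ± 47.5 normalized counts per kilobase. Over the 3 ICI-myocarditis libraries they were 5327 ± 697 and 517 ± 252. Which cells made the Itgb1 RNA was not measured, so these levels do not give the share of each partner in cells with Itga4. For Itgb1 the log2 fold change was -0.06 (SE 0.273; limma adjusted p = 0.916), and its sign turned under 5 of 17 alternatives. Itgae, which pairs with Itgb7, rose by 3.82 (log2; SE 0.604; limma adjusted p = 0.00501), from 34.8 ± 37.7 to 368.5 ± 84.6 normalized counts. Madcam1 was at 0 in 5 libraries and at most 2.90 normalized counts.

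To set the genes against cell classes, the log2 difference between each gene and a marker mean was taken in every library. Which cells made a gene's RNA was not measured, so a shift is not a level per endothelial cell or per leukocyte. The 12 endothelial markers were all below 0, with 4 (Kdr, Erg, Tek and Cldn5) called lower and a median of -0.92. The number called lower was 1 to 8 under the alternatives, the highest without control 4. Their sum was 37751 to 99439 normalized counts in controls and 30028 to 40760 in ICI-myocarditis. All 9 pan-leukocyte markers rose, with a median of 2.78. With 5 pairs of members, 15 such differences were tested, each two-sided, by exact permutation of the group labels (35 arrangements). The smallest p this design allows, 0.0286, was reached by 6, and none passed adjustment over the 15 (smallest adjusted p = 0.0714).

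Relative to endothelial markers, Icam1 moved from -2.58 ± 0.553 (SD, n = 4) to 0.16 ± 0.360 (SD, n = 3), Vcam1 from -1.93 ± 0.798 to 1.03 ± 0.543 and Selp from -7.37 ± 0.374 to -4.96 ± 0.326 (exact permutation p = 0.0286 each, adjusted 0.0714). All 3 ICI-myocarditis libraries were above all 4 controls in each. The vascular genes were not set against the pan-leukocyte markers, whose median log2 fold change (2.78) was above that of Vcam1 (2.07) and Icam1 (1.86). Icam2 was at -1.64 ± 0.347 and -1.44 ± 0.163, and Sele at -5.43 ± 0.672 and -5.13 ± 0.311, with overlapping groups (exact permutation p = 0.486 each, adjusted 0.520). With Kdr alone as the endothelial reference, the shift of Icam2 was 0.96 in place of 0.20 and that of Sele 1.05 in place of 0.29 (exact permutation p = 0.0571 and 0.114, adjusted 0.122 and 0.171). Kdr had the lowest log2 fold change of the 12 endothelial markers (-1.65, beside a median of -0.92), so larger shifts follow from that choice.

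Relative to pan-leukocyte markers, the groups overlapped for Selplg, Itgal, Itgb2 and Itga4 (exact permutation p from 0.114 to 0.486). Itgal was at -1.74, 0.22, -1.52 and -1.58 in controls 1 to 4 and -0.14, 0.036 and 0.21 in ICI-myocarditis 1 to 3, so that control 2 sat among the ICI-myocarditis libraries. Itgb7 alone did not overlap, at -2.19 ± 0.553 in controls and -1.12 ± 0.230 in ICI-myocarditis (exact permutation p = 0.0571, adjusted 0.122).

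**Figure D3:**
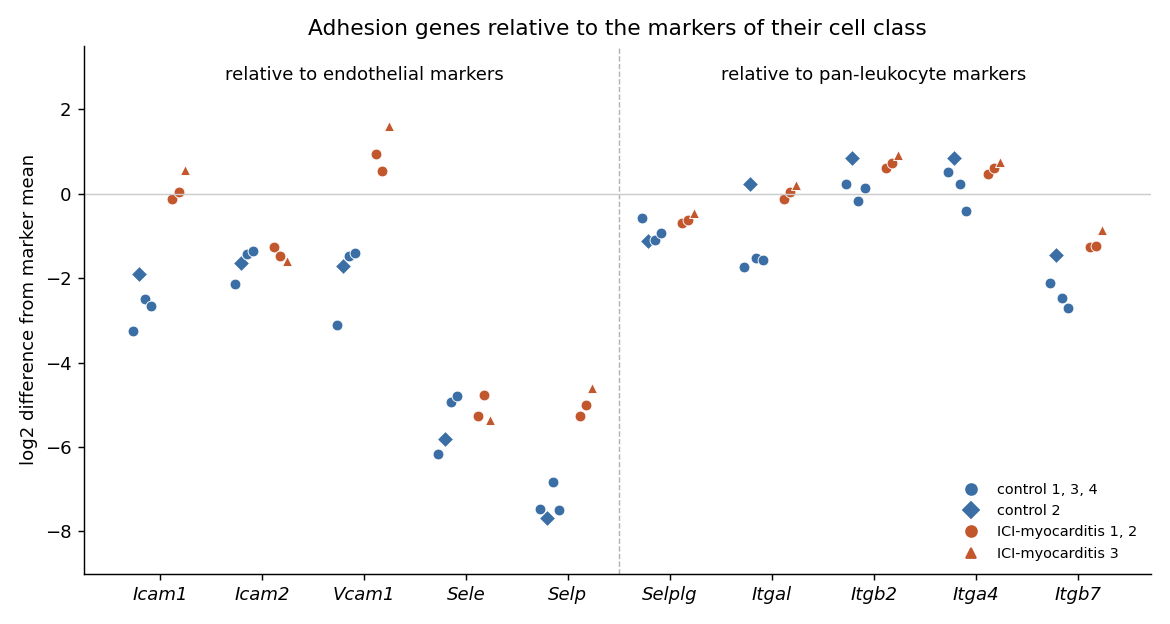
Log2(normalized count + 1) of each gene minus the mean of a marker list, per library. Left of the dashed line the reference is 12 endothelial markers, right of it 9 pan-leukocyte markers, with symbols as in the plot of counts. Icam1, Vcam1 and Selp separate by group, while Icam2, Sele and most leukocyte genes overlap.

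Between members, Icam1 relative to Icam2 moved from -0.94 ± 0.455 (SD, n = 4) to 1.60 ± 0.511 (SD, n = 3), a shift of 2.54, and Sele relative to Selp from 1.94 ± 0.580 to -0.18 ± 0.515, a shift of -2.12. Itga4 relative to Itgb7 went from 2.49 ± 0.218 to 1.72 ± 0.126, a shift of -0.77. The groups were apart in these 3 pairs (exact permutation p = 0.0286 each, adjusted 0.0714). Itgal relative to Itgb2 and Icam1 relative to Vcam1 overlapped (exact permutation p = 0.143 and 0.543, adjusted 0.195 and 0.543).

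Other genes of the selectin pathway were mixed: of 17 tested 6 rose and 2 fell, with a median log2 fold change of 0.09. Cd44, a hyaluronan receptor that also binds selectins, rose from 965.5 ± 227 (SD, n = 4) to 5653 ± 1964 normalized counts (SD, n = 3), by 2.52 (SE 0.269, limma adjusted p = 0.00251). Spn, encoding the leukocyte sialomucin CD43, rose by 4.24 and Gcnt1, which builds the glycan branch that selectin ligands carry, by 1.63 (limma adjusted p = 0.00410 and 0.00467). Fut4, a fucosyltransferase, rose by 1.36 (limma adjusted p = 0.0154). Fut7, the fucosyltransferase that finishes these glycans, is among the 6 but averaged 2.94 ± 3.88 normalized counts over controls against 43.9 ± 21.6 over ICI-myocarditis libraries (SD). It entered the test only through the ICI-myocarditis libraries, so its call carries no weight of its own. Emcn, an endothelial sialomucin, and St3gal6, a sialyltransferase, were the decreases (-1.16 and -0.87). Emcn passed in 16 of 17 alternatives and St3gal6 in 6 of 17. Without ICI-myocarditis 1 the increases numbered 4, without ICI-myocarditis 2 or 3 they numbered 3, and neither decrease passed with library size scaling.

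Among 17 other vascular ligands and junction genes, 4 rose and 2 fell, with a median of -0.30. Cx3cl1, a membrane-bound chemokine, rose by 2.06, with 273, 337, 245 and 256 normalized counts in controls and 606, 1115 and 2267 in ICI-myocarditis (SE 0.385, limma adjusted p = 0.00871). Alcam, the ligand of CD6 on T cells, rose by 2.04 (limma adjusted p = 0.00661), and Cd47 by 0.82 (limma adjusted p = 0.0267). The remaining call, Icam5, at 4.98 ± 2.30 normalized counts over controls against 17.8 ± 3.03 over ICI-myocarditis libraries, likewise entered the test only through the ICI-myocarditis libraries. The junctional genes Jam2 (-1.22, limma adjusted p = 0.00546) and Jam3 (-1.05, limma adjusted p = 0.0274) fell. Leaving out control 1, control 3 or any ICI-myocarditis library reduced the increases to 2. Without control 4 the decreases numbered 5, and without control 3, ICI-myocarditis 2 or ICI-myocarditis 3, or with library size scaling, they numbered 1.

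Of 12 other integrin chains, 6 rose and none fell. Itgax rose by 4.44, Itgae by 3.82 and Itgam by 2.59 (limma adjusted p = 0.0127, 0.00501 and 0.00285), and Itgb3, Itga5 and Itgav by 1.63, 1.04 and 1.01. The increases numbered 3 without ICI-myocarditis 2 and 2 without ICI-myocarditis 3, and 1 chain was called lower with limma-voom and without control 4. Itgax missed the threshold with edgeR (adjusted p = 0.0685) and without ICI-myocarditis 3 (limma adjusted p = 0.0542). Of 16 genes that regulate the activation of leukocyte integrins, 12 rose, with a median of 2.53, and the count was 9 to 12 under the alternatives. Skap1, among the 12, had 6.05, 72.8, 20.1 and 3.75 normalized counts in controls. It needed the ICI-myocarditis libraries to pass the filter, so its call carries no weight of its own. Rac2, a small GTPase of blood cells, rose by 3.53, Fermt3, encoding kindlin-3, by 2.61 and Rassf5, encoding the Rap1 effector RAPL, by 2.45 (limma adjusted p = 0.00300, 0.00356 and 0.00398). Cytip, whose product binds cytohesin-1 and lowers LFA-1 adhesion, rose by 2.89 (limma adjusted p = 0.00398). The broadly expressed Tln1, Rap1a and Rap1b, and Rasgrp2, did not pass.

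**Figure D4:**
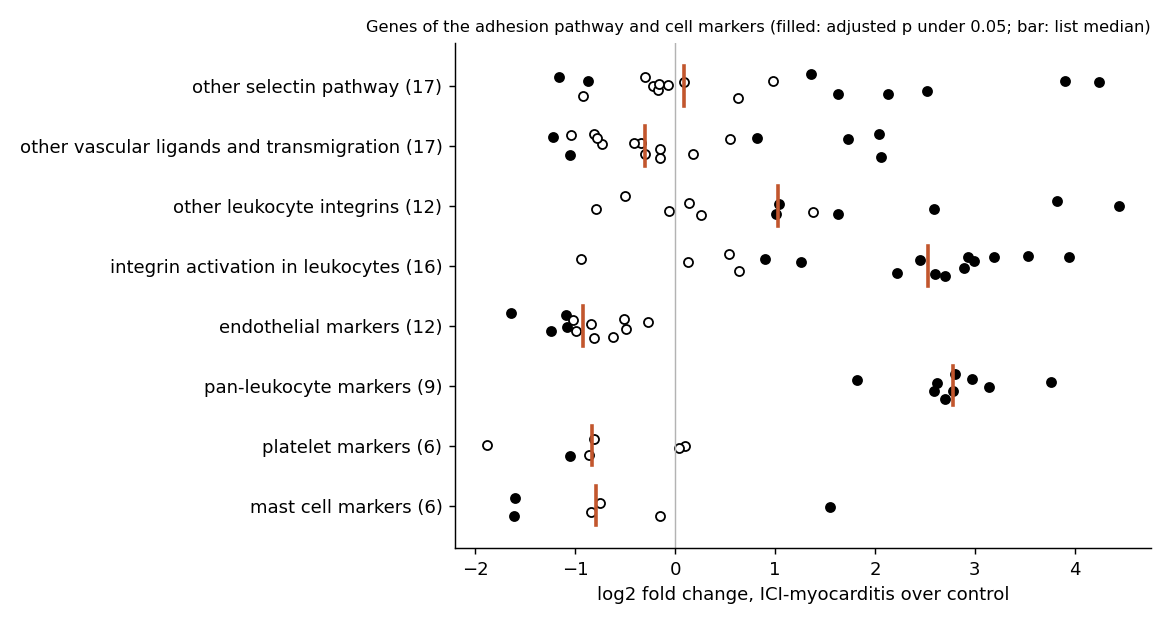
Log2 fold change, ICI-myocarditis over control, of each tested gene in 8 lists, with the number tested in brackets. Filled points passed an adjusted p of 0.05 and the orange bar is the list median. Pan-leukocyte and integrin activation genes lie mostly to the right, at medians of 2.78 and 2.53, and endothelial markers to the left, at -0.92.

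Other cell classes were read the same way. Of macrophage and monocyte markers 9 of 10 rose, and their sum was 14285 to 18416 normalized counts in controls and 57492 to 88196 in ICI-myocarditis. All 10 T cell markers rose. Cd3d (7.06, 132, 23.4 and 8.76 normalized counts in controls) and Cd8b1 (7.06, 128, 11.2 and 2.50) needed the ICI-myocarditis libraries to pass the filter. Their calls carry no weight of their own. Of 3 neutrophil markers tested 1, Csf3r, rose, while S100a8 and S100a9 were at -0.20 and -0.62 and did not pass. Of 5 B cell markers tested 1, Cd79b, rose, and it passed in 11 of 17 alternatives. Among 10 fibroblast and mural markers 1 rose (Col1a1) and 3 fell, and of 9 cardiomyocyte markers 1 rose, Nppa. The other 8 cardiomyocyte markers had log2 fold changes below 0 that did not pass (list median -0.80), and the 9 summed to 1385805 to 3115152 normalized counts in controls and 922424 to 1481502 in ICI-myocarditis.

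Outside all of these lists, the genes whose profile over the 7 libraries came closest to each member were found by the root mean square difference of log2 values centred on each gene, among 13974 genes. Naip5 (0.122) and Pla2g4c (0.157) were closest to Icam1, and Tifa (0.120) and C1rl (0.145) to Vcam1. Icam2 was nearest to Pcdhga1 (0.0707) and Nostrin (0.0826), Sele to B3galt2 (0.119) and Zfp551 (0.131), and Selp to Lpar2 (0.159) and Rab39b (0.173). Pld4 and Slc11a1 were closest to Selplg, Fgr and Ptpn22 to Itgal, Hyal5 and Psd4 to Itgb2, B4galnt1 and Fam196b to Itga4, and Cyp4f18 and Ly9 to Itgb7, at 0.115 to 0.223. Hyal5 averaged only 0.925 normalized counts over controls and entered the test only through the ICI-myocarditis libraries. Its log2 fold change ran from 1.77 to 5.88 over 14 alternatives, so its nearness to Itgb2 carries no weight of its own. Pla2g4c averaged 6.73 normalized counts over controls and 19.9 over ICI-myocarditis libraries, and needed the latter to pass the filter. It passed the threshold in 2 of 17 alternatives, so its nearness to Icam1 carries no weight of its own either. Among the members themselves, Itga4 and Itgb2 were the nearest pair (0.288), followed by Icam2 and Sele (0.312). Icam1 and Vcam1 were nearest to each other (0.420) and then to Selp (0.498 and 0.622). Both lay nearer to Selplg (0.667 and 0.625) than to Icam2 (1.32 and 1.44). These distances describe 7 libraries that share a group difference, and no test was made of them.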

How the data were processed

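RNA from mouse ventricle was sequenced from 7 stranded total RNA libraries, paired-end. One deposited table was used. Its library columns hold a signal, each being a gene's reads over a size factor of that library, judged from the deposited values. Per the file headers, it also holds a log2 fold change, a test statistic (a score) and raw and adjusted p-values that the authors computed. STAR 2.7.3 and GRCm38 (mm10) are named in the submitters' processing notes, while the counting program, annotation and use of strand are not given in the sources used here. All values were whole multiples of 1 step per library (within 0.001), which gave back read counts. For control 1 the step was 1.01, so near 1 that this is weaker evidence there. Counts overstate the molecules sampled, since reads carried no molecular identifiers.

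A gene entered the test if 3 or more libraries reached 10 normalized counts. limma 3.58.1, run in R 4.3.3, was fitted to log2(normalized count + 1), a scale that understates changes of low genes, using trended, robust variances and Benjamini-Hochberg adjustment. Differences are ICI-myocarditis minus control. Alternatives were other pseudocounts, no filter, other scalings, limma without trend, limma-voom, edgeR 4.0.16 and DESeq2 1.42.0 on recovered reads, a replicate block and leaving out each library. The tests were checked on simulated counts, where DESeq2 made a larger share of wrong calls than limma, edgeR or limma-voom. Gene places and lengths came from GENCODE M21. The members and gene lists were chosen with earlier results of these data known. Named genes are the members, Ctla4 and Pdcd1, the 3 lowest p-values of each pathway list, the 2 most abundant markers of each cell type and the 2 nearest profiles, predicted genes passed over. Other called genes and partner chains were named after their values were seen. The labels do not say in words that each library is a separate animal, so p-values measure the spread between these libraries. One called gene of the selectin list is not reported here by name.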

Additional observations from a re-analysis of the deposited data

Results flagged for a closer look

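In the 4 controls, each member's log2 normalized count and each of the 15 log2 differences were screened for 1 library far from the rest, 25 sets in all, of which chance would pick about 1 in 20. For 2 of them the widest gap exceeded Dixon's 95% critical share of the range, and control 2 was the high library both times. The gap was 0.922 of the range for Itgb2 and 0.888 for Itgal relative to pan-leukocyte markers.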

How the results depend on the processing

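The number of members called higher was 8 with all libraries under each change of pseudocount, filter, test or TMM scaling, 7 with library size scaling and with the replicate block, and 6 to 8 with 1 library left out. One member, Icam2, was called lower with DESeq2 and limma-voom, and 0 to 1 with 1 library left out. Library size scaling moved the median of all genes tested from -0.02 to 0.14. Calls over the whole table, 2397 (1787 higher, 610 lower), numbered 4050 with limma-voom and 986 to 3340 with 1 library left out (829 to 2252 higher and 157 to 1088 lower). Calls of lower genes numbered 1243 with DESeq2, 1539 with limma-voom, 311 with library size scaling and 389 with the replicate block. Controls and ICI-myocarditis share replicate numbers 1 to 3, but same-numbered libraries did not deviate together (correlations -0.27, -0.21 and -0.078), so the numbers were not taken as pairs. No ICI-myocarditis library shares the number of control 4, so the block gave the same log2 fold changes as leaving out control 4. The block ended the call of Selp (limma adjusted p = 0.112) and of no other member, and reduced the increases among other vascular ligands from 4 to 2 and among other integrin chains from 6 to 4. Of the 15 log2 differences, 2 turned sign when Ptprc alone replaced the pan-leukocyte list, Selplg (-0.0075) and Itga4 (-0.034), neither called, and the cause was not tested. With 1 library left out those exact tests cannot reach 0.05. Signs also turned for Itgb1 (0.10 with library size scaling, 0.054 with the replicate block, -0.16 to 0.054 with 1 library left out), Kit (0.011 with library size scaling, -0.51 to 0.11 with 1 library left out) and Blk (-0.12 with the block, -0.12 to 0.47 with 1 library left out), none called. Reads in the lowest library numbered 9 for Selp, 34 for Itgb7 and 45 for Sele.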
